A study of Caenorhabditis elegans with 2 samples.

Results

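The genes described here encode the factors that start protein synthesis on messenger RNA and that move the ribosome along it. They were taken by name: all protein-coding genes of the Ensembl WBcel235 annotation whose symbols begin with eif-, eef-, iff-, ife-, ifg- or inf-. That gave 40 of 19973 genes, of which 32 are initiation factors by name (eif-, ife-, ifg- and inf-), 6 are elongation factors (eef-) and 2 encode eIF5A (iff-). The worms were whole Caenorhabditis elegans of strain OP397 in larval stage L4, aged 50 hours, after synchronisation by bleaching and starvation at L1. They carried the transgene wgIs397, in which D1046.2 is joined to TY1, EGFP and 3xFLAG tags, together with unc-119(+), in a strain with the mutation unc-119(tm4063). An antibody to GFP pulled down the fusion, and sonicated chromatin was sequenced. The labels give 1 group of 2 biological replicates and no second condition, and do not say which cells of the worm hold the fusion.

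Initiation begins when eIF4E binds the cap at the end of the messenger RNA and, with the scaffold eIF4G and the helicase eIF4A, brings in the small ribosomal subunit that carries eIF1, eIF1A, eIF2 and eIF3. eIF2 delivers the initiator tRNA and is recharged with GTP by eIF2B. In elongation, eEF1A brings each aminoacyl-tRNA to the ribosome, eEF1B recharges eEF1A, eEF2 moves the ribosome on by a codon, and eIF5A, an initiation factor by name, acts at stalled and elongating ribosomes. eif-4A3 is named for its similarity to eIF4A but is known as a part of the exon junction complex, and eif-6 is known for holding the ribosomal subunits apart.

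The sequences around the summits of bound promoters are shown first, with the matching windows of unbound paralogs and of eif-3.B beside them. Each is 300 bases of the RefSeq reference genome (ce11) centred on the summit of the strongest promoter region, read 5′ to 3′ on the strand of the gene. Capitals mark matches, on either strand, to 7 motifs of 6 bases. These are CGAACC and the motif GAACCC, which overlap, then GCGCCA and the motif CGCGCC, which also overlap, and besides them CACGTG, the repeat GAGAGA, which overlaps itself, and the TATA-like motif TATAAA. With both replicates combined, ife-3, iff-2 and eef-1A.2 had a peak, while iff-1, eef-1A.1 and eif-3.B had only a candidate region. For eif-3.B, replicate 1 alone listed a peak.
ife-3 (chrV:8105-8404, minus strand): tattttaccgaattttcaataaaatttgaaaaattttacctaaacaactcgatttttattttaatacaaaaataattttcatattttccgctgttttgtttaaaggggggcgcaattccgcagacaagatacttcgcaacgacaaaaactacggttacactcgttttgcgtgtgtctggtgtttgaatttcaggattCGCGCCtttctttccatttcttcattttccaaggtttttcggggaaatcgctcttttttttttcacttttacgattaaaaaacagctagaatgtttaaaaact
iff-2 (chrII:8561256-8561555, minus strand): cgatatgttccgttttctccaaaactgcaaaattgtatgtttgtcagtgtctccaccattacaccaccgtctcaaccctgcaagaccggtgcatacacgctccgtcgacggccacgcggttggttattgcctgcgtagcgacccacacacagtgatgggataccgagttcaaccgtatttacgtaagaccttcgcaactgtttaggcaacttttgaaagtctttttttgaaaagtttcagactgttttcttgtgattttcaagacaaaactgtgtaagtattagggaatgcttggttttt
iff-1 (chrIII:9747125-9747424, minus strand): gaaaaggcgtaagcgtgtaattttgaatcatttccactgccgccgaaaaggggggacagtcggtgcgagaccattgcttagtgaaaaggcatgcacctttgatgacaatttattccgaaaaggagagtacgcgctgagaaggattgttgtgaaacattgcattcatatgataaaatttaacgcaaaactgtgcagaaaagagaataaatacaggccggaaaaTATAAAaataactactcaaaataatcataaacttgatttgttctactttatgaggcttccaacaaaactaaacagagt
eef-1A.2 (chrX:7823116-7823415, plus strand): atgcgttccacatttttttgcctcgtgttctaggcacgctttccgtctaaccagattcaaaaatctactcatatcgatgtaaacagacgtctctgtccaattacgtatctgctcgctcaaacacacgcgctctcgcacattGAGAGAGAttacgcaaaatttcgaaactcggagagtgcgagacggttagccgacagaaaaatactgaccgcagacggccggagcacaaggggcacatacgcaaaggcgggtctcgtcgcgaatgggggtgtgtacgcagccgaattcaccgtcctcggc
eef-1A.1 (chrIII:6971965-6972264, minus strand): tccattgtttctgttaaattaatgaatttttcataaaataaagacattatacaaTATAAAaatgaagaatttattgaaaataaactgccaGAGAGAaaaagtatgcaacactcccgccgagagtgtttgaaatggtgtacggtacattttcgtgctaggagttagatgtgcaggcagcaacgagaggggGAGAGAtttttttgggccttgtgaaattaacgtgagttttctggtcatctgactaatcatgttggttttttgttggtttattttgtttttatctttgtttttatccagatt
eif-3.B (chrII:14794991-14795290, plus strand): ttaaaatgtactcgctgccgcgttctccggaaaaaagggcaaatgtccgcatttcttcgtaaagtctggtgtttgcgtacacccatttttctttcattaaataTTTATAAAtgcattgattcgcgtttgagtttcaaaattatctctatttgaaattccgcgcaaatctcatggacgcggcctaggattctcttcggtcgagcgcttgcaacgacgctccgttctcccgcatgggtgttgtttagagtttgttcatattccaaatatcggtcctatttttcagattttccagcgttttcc

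The ife-3 window held 1 CGCGCC and the eef-1A.2 window 2 overlapping GAGAGA matches next to the summit. The iff-2 window held none of the 7. Of the unbound paralogs, only the windows of iff-1 and eef-1A.1 were examined. Both had TATAAA, and eef-1A.1 had 2 GAGAGA as well. The window of eif-3.B had 2 overlapping TATAAA matches. Of the other bound members, the eef-2 window held 2 GCGCCA, 1 CGCGCC and 1 GAACCC, and the eif-3.C window 2 GCGCCA and 1 CGCGCC. The motif CGCGCC was thus in the windows of 3 of the 5 bound members. It was in 20.7% of the 397 windows at all promoter peaks, 5.08% of the windows at other candidate regions and 4.59% of all promoters (250 bp upstream to 50 bp downstream of the 5′ end). The same shares were 17.6%, 6.39% and 5.08% for GCGCCA, 30.7%, 16.4% and 21.8% for GAGAGA, and 20.4%, 22.6% and 37.9% for TATAAA. For GAACCC they were 13.1%, 6.80% and 4.44%. CGAACC (12.3%, 6.28% and 3.86%) and CACGTG (7.81%, 6.29% and 5.82%) were in none of the 8 windows examined. The G+C content of these sets of windows also differed, at 43.1%, 39.0% and 34.8% in the same order, and the shares were not adjusted for it. The motifs were chosen with earlier results of these data known, so a higher share at peaks may in part be set by that choice. A match is only a description of the letters.

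A promoter peak was counted where the summit of a peak of the conservative list lay from 500 bp upstream to 100 bp downstream of an annotated 5′ end of the gene. The conservative list holds 1546 peaks that passed the authors' comparison of both replicates, in which the lowest −log10 of the irreproducible discovery rate (IDR) was 2.00. The ranked list behind it holds 106921 candidate regions, and for genes with no peak the strongest candidate of that list was taken. The signal of a peak or candidate is the authors' own value, and the labels and files do not name its scale, so it is compared only within a list. Replicate 1 alone had 619 peaks and replicate 2 alone 463. The files hold peaks and no reads, so the depth is unknown. The control chromatin was not analysed here.

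Of the 40 factor genes, 5 had a promoter peak: ife-3, iff-2, eef-2, eef-1A.2 and eif-3.C. This is 12.5% (95% Wilson interval 5.46 to 26.1), beside 2.34% of all 19973 protein-coding genes. Among the 30 factor genes with any candidate in the promoter the share was 16.7%, beside 4.15% of the 11284 protein-coding genes with one. Intervals cover counting error only, genes were not matched for expression, and no test was run over the genes. The members of each step were few: 2 of 32 initiation factors had a peak (6.25%, 1.73 to 20.1), 2 of 6 elongation factors (33.3%, 9.68 to 70.0), and 1 of the 2 eIF5A genes. The intervals of the initiation and the elongation factors overlap, and whether their shares differ was not tested.

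**Figure D1:**
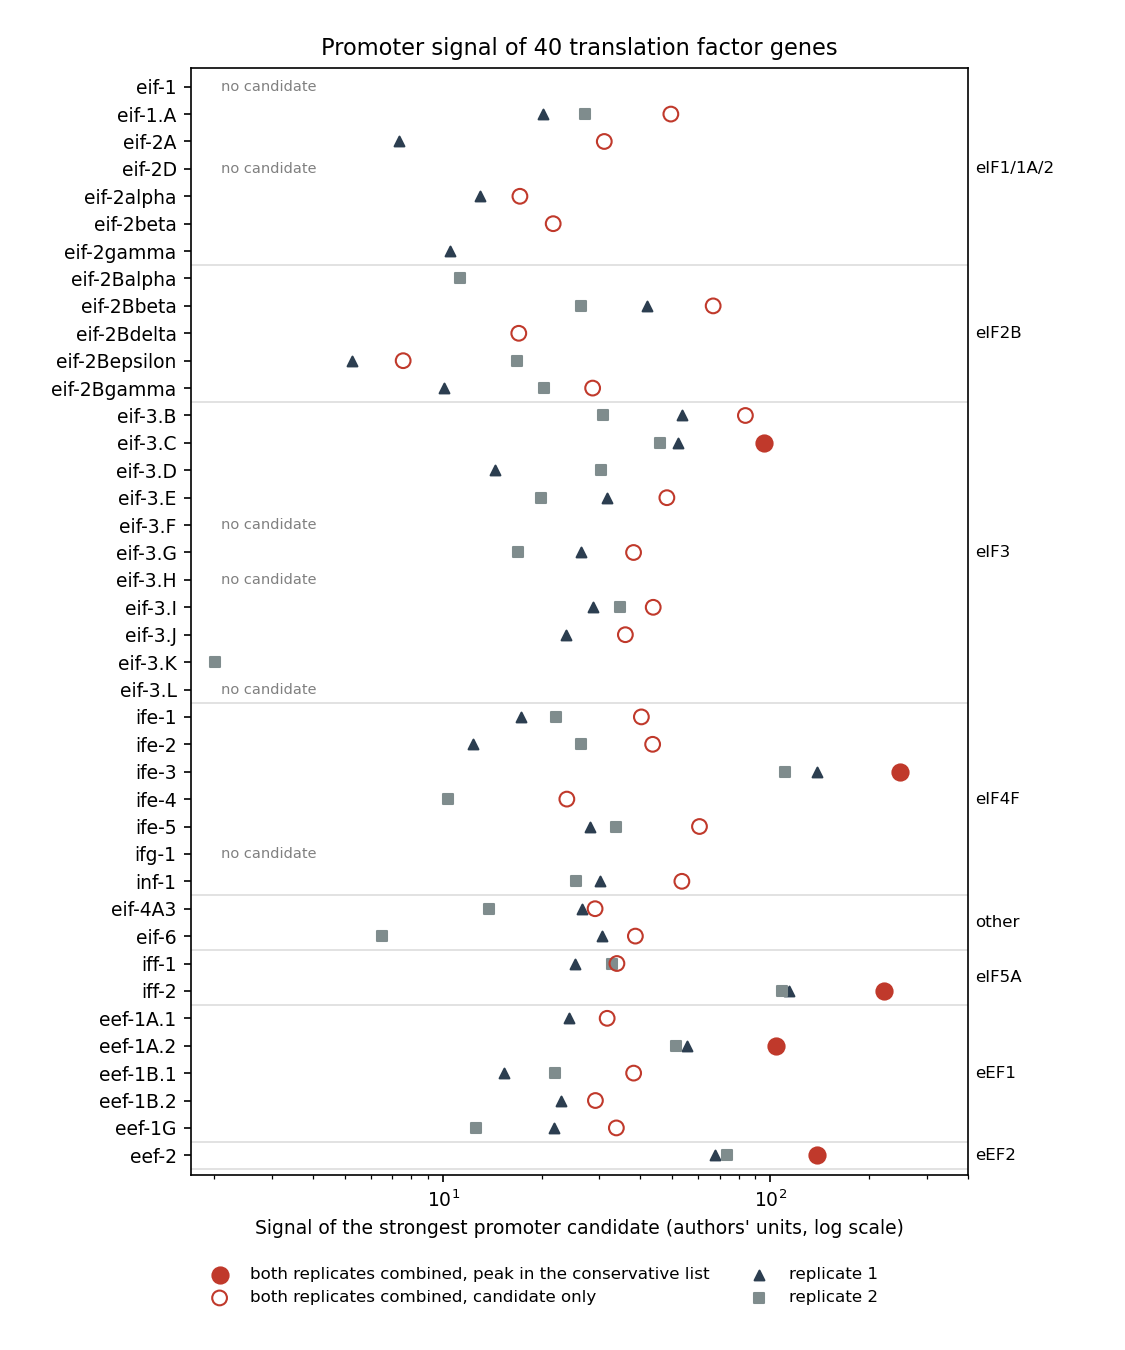
Signal of the strongest promoter region of each of the 40 factor genes, on a log axis, by complex; circles are both replicates combined (filled where the conservative list holds a peak), triangles replicate 1 and squares replicate 2. The 5 filled circles lie from 95.9 to 249 and the open ones from 7.55 to 83.8, and 6 genes had no candidate in any list.

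By complex, peaks were spread thinly. The groups hold only genes with the prefixes given above, so parts of a complex under other names are not counted. Of the 7 genes of eIF4F, the cap-binding complex, only ife-3 had a peak, and of the 11 eIF3 genes only eif-3.C. None of the 7 genes for eIF1, eIF1A and eIF2 (with eif-2A and eif-2D) had one, which allows a share of up to 35.4% by the Wilson interval. None of the 5 eIF2B genes had one (up to 43.4%), nor did eif-4A3 or eif-6. The share over all protein-coding genes was 2.34%, which lies inside these intervals. The lack of a peak in groups this small therefore does not set them apart from other genes. Of the 5 eEF1 genes only eef-1A.2 had a peak, and the single eEF2 gene had one.

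The strongest member peak was that of ife-3, one of 5 worm genes for the cap-binding protein eIF4E. It spans chrV:8107-8402 (ce11), near the end of the chromosome, with its summit in intergenic sequence 427 bp upstream of the 5′ end. Its signal was 249 in the combined call, 139 in replicate 1 and 110.4 in replicate 2, and both replicates listed it as a peak. It ranked 71 among the 1546 conservative peaks and 49 among the 397 with a promoter summit. No other gene had this peak in its promoter.

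iff-2 encodes the eIF5A that is known from worms as the somatic form. Its peak at chrII:8561399-8561486 was only 88 bp wide in the combined call, against 296 bp for the 4 other bound members, and its summit lay 39 bp upstream of the 5′ end. The single replicates did not have this narrow width, with regions at chrII:8561285-8561568 in replicate 1 and chrII:8561290-8561565 in replicate 2. The signal was 223 combined, 114 in replicate 1 and 108 in replicate 2, and both replicates listed a peak. It ranked 93 among all conservative peaks and 57 among promoter peaks. ife-3 and iff-2 were the only members in the lists of both replicates.

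The eef-2 peak (chrI:9163367-9163662) lay closest to the start of its gene, with the summit 16 bp upstream. Its signal was 139 combined, 67.8 in replicate 1 and 73.8 in replicate 2, at rank 291 of all and 117 of the promoter peaks. The gene clsp-1, which runs the other way, has the same peak in its promoter, so the peak cannot be given to eef-2 alone. Replicate 1 listed it as a peak (−log10 IDR 2.48), and in replicate 2 it was only a candidate, with a −log10 IDR of 1.94.

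eef-1A.2 had a peak at chrX:7823118-7823413, with the summit 388 bp upstream. The signal was 104 combined, 55.5 in replicate 1 and 51.6 in replicate 2, at rank 601 of all and 218 of the promoter peaks. Neither replicate by itself listed it (−log10 IDR of 1.45 in replicate 1 and 1.71 in replicate 2), so this call rests on the 2 replicates together.

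eif-3.C encodes a core subunit of eIF3, the large complex that holds the small subunit ready for the messenger RNA. Its peak (chrI:9979740-9980035) had the lowest signal of the 5: 95.9 combined, 52.3 in replicate 1 and 46.0 in replicate 2, at rank 764 of all and 259 of the promoter peaks. Replicate 1 listed it, with a −log10 IDR of 2.08, but in replicate 2 it was only a candidate, with a −log10 IDR of 0.155. The summit, 226 bp upstream, lies in the gap of 401 bp behind sys-1, a gene on the same strand that encodes a β-catenin.

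Across the bound members the signals of both replicates were close, with a ratio of replicate 1 to replicate 2 from 0.919 at eef-2 to 1.26 at ife-3. The summits in the replicates lay from 1 to 42 bp away from the combined summit. The conservative list was made by comparing these same replicates, so such closeness is in part set by the choice of peaks. The median signal was 114.8 over all 468 genes with a promoter peak, so ife-3, iff-2 and eef-2 lay above it and eef-1A.2 and eif-3.C below. None of the 5 summits was within 500 bp of a tRNA or snoRNA gene. All 5 lay outside annotated genes.

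**Figure D2:**
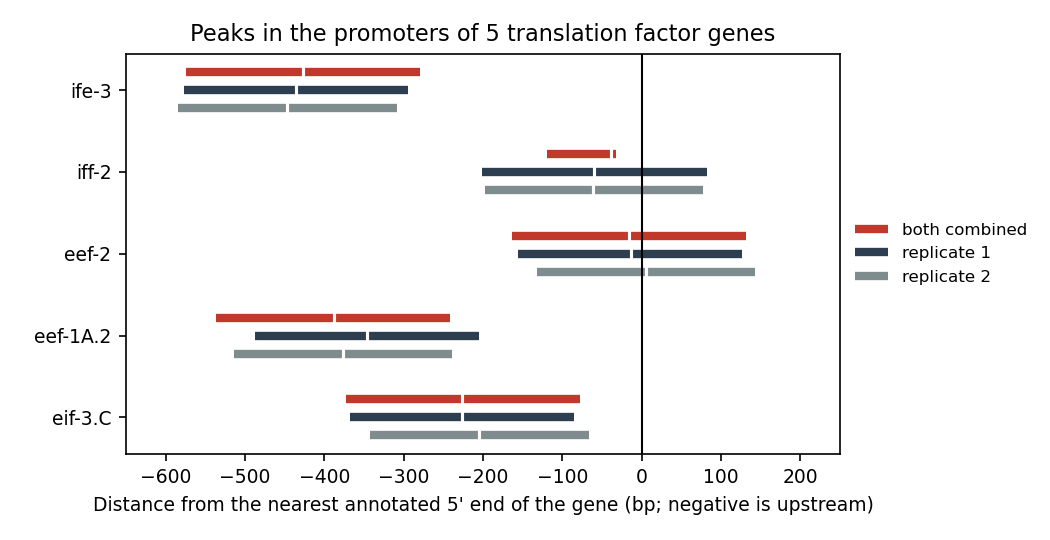
Position of each bound member's peak relative to the nearest annotated 5′ end of its gene (bp, negative is upstream), for the combined call and for each replicate; the white mark is the summit. The summits of iff-2 and eef-2 lie within 39 bp of the 5′ end, that of eif-3.C 226 bp and those of eef-1A.2 and ife-3 388 and 427 bp upstream.

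**Figure D3:**
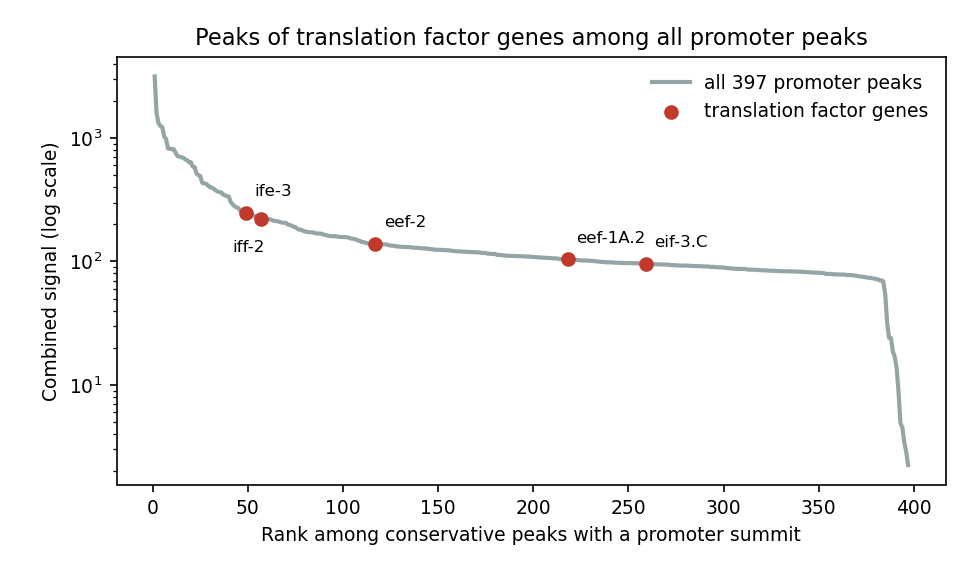
Combined signal (log axis) of the 397 conservative peaks with a promoter summit, by rank, with the 5 factor genes marked. The members sit at ranks 49, 57, 117, 218 and 259.

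The paralogs differed in their promoter signal, and in each of the families eEF1A, eIF5A and eIF4E a single gene had the peak. The proteins of eef-1A.2 and eef-1A.1, translated from the annotated genes, were identical over all 463 residues. eef-1A.1, known by its older name eft-3 as the source of a promoter used to drive transgenes widely in the worm, had no peak. Its strongest candidate, 403 bp upstream, had a combined signal of 31.7 and a −log10 IDR of 0.157. Replicate 1 had a candidate of 24.2 there and replicate 2 none in the promoter. The signal of eef-1A.2 was 3.28 times that of eef-1A.1 in the combined list and 2.29 times in replicate 1. The promoters of the pair share no exact run longer than 23 bp, while the coding sequences share one of 53 bp.

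iff-2 and iff-1 encode proteins with 83.9% identity over 161 aligned residues. iff-1 is known as the eIF5A of the germline. Its strongest candidate had a combined signal of 34.0, 25.4 in replicate 1 and 32.7 in replicate 2, the last at a different place in the promoter, 498 bp upstream. The signal of iff-2 was 6.55 times that of iff-1 in the combined list, 4.51 times in replicate 1 and 3.31 times in replicate 2. At the combined iff-1 region itself replicate 2 had a weaker candidate, of 12.1. Both replicates had the same direction, but the peak of iff-2 was called from these same replicates, so this is no separate support. The same holds for the bound genes of the eEF1A and eIF4E families.

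Of the eIF4E genes, ife-3 had 249 in the combined list, against 60.7 for ife-5, 43.7 for ife-2, 40.3 for ife-1 and 23.9 for ife-4. In replicate 1 ife-3 had 139, against 28.1 for ife-5, 17.3 for ife-1 and 12.4 for ife-2, with no candidate for ife-4. For ife-2 a stronger candidate of replicate 1, of 25.7, overlapped the combined region but had its summit outside the promoter window. In replicate 2 it had 110.4, against 33.8 for ife-5, 26.4 for ife-2, 22.2 for ife-1 and 10.3 for ife-4. ife-3 was thus at least 3.27 times as high as any paralog with a candidate in each replicate. Among the other four, ife-1 was above ife-2 in replicate 1 and below it in replicate 2, but with the value of 25.7 for ife-2 it was below in both. Identity with the ife-3 protein was from 36.0% for ife-4 to 47.7% for ife-1.

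Neither gene of the eEF1B pair had a peak. Their proteins, of 213 residues for eef-1B.1 and 440 for eef-1B.2, had 28.6% identity over 210 aligned residues. eef-1B.1 had a candidate of 38.2 in the combined list, 15.4 in replicate 1 and 21.96 in replicate 2, and eef-1B.2 one of 29.2 combined and 22.9 in replicate 1, with none in replicate 2. The order of this pair was the opposite in replicate 1, and both candidates were near the median of 32.6 for all genes without a peak.

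**Figure D4:**
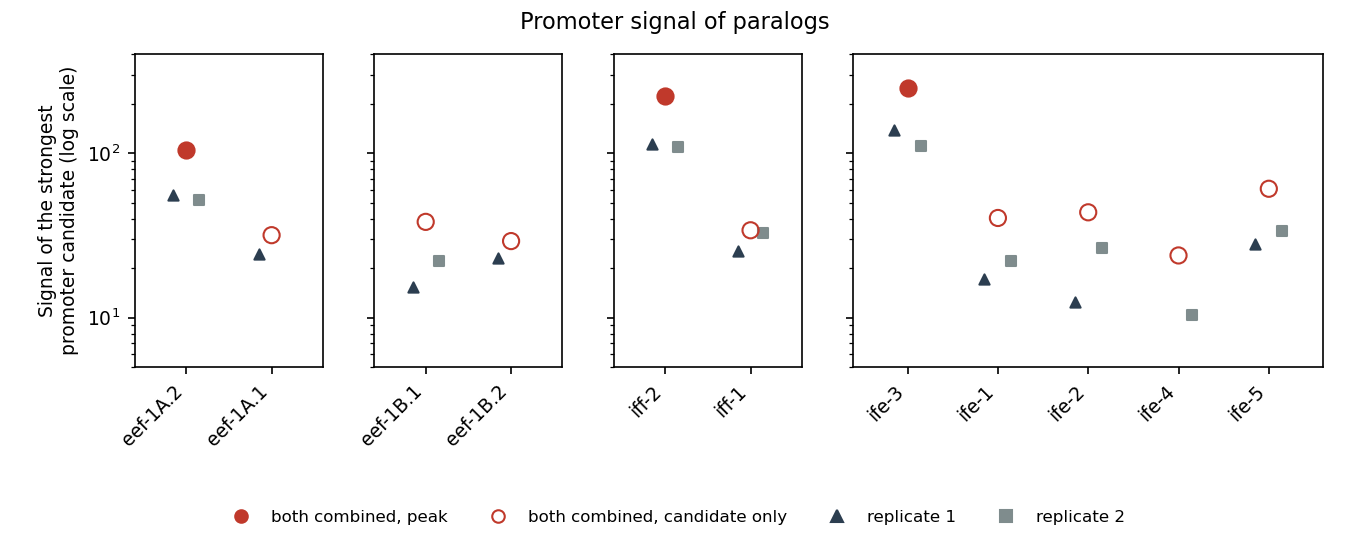
Signal of the strongest promoter region of each paralog (log axis), for both replicates combined and for each replicate. eef-1A.2, iff-2 and ife-3 hold the only filled circles, at 104, 223 and 249, and their replicate values lie above those of every paralog shown in the same panel.

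Of the 35 factor genes without a peak, 25 had a candidate in the combined list, with a median signal of 36.0 and a range from 7.55 to 83.8. The median over all 10816 protein-coding genes with a candidate and no peak was 32.6. Of these 25 candidates, 22 were overlapped by a candidate of replicate 1, 16 by one of replicate 2 and 15 by both. The summit in the replicate was as far as 185 bp from the combined summit. The −log10 IDR of the 25 was from 0.157 to 1.30.

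The candidate of eif-3.B, a scaffold subunit of eIF3, came nearest in signal, with 83.8 in the combined list, 263 bp upstream. This is above the signal of 399 of the 1546 conservative peaks, but the −log10 IDR was 0.490. In the ranked list behind the optimal peaks the same region, with the same signal, had a −log10 IDR of 1.61, and it was not among the optimal peaks. Replicate 1 listed a peak there with a signal of 53.5 and a −log10 IDR of 2.23, 1 of its 619. Replicate 2 had a candidate of 16.9 with its summit 9 bp from the combined one, and its strongest in the promoter, 30.8, had the summit 455 bp upstream. The 2 replicates therefore differ at eif-3.B.

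Next came eif-2Bbeta, for a subunit of the eIF2 recharging factor, with 66.8 combined, 41.9 in replicate 1 and 26.4 in replicate 2. Its summit lay inside the neighbouring gene Y47H9C.8. The candidates of ife-5 (60.7) and inf-1 (53.6, the eIF4A gene) were upstream of internal 5′ ends, in an intron of ife-5 and in a coding exon of inf-1. inf-1 had 30.1 in replicate 1 and 25.5 in replicate 2. eif-1.A had 49.6 combined, 20.2 in replicate 1 and 27.2 in replicate 2, with the summit in coding sequence 24 bp downstream of the 5′ end. The −log10 IDR of these 4 was from 0.722 to 1.30, and none was listed as a peak anywhere.

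At the low end, 10 of the 40 factor genes had no candidate in the promoter in the combined list, and 30 had one. Over all 19973 protein-coding genes only 11284 had one, so lacking a candidate was no rarer there. Of the 10 members, eif-1, eif-2D, eif-3.F, eif-3.H, eif-3.L and ifg-1, the gene for the scaffold eIF4G, had none in any of the 4 ranked lists. eif-2Balpha, eif-2gamma, eif-3.D and eif-3.K had one in a replicate's or the other combined list, of at most 30.3. Same-strand genes ended within 500 bp upstream of 1 of the 5 bound genes, and of 6 of the 35 others. Genes on the other strand lay as near upstream of 1 of the 5 and of 12 of the 35. Such neighbours were not counted over all protein-coding genes, so these numbers are a description only.

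The summits of the bound members were rich in G and C. Counted up to 50 bp to either side of the summit, G+C was 51.1% ± 4.12 (SD, n = 5 genes), against 30.3% ± 4.79 in windows of the same size 250 bp to either side, and the summit was higher at all 5. Over all 397 promoter peaks the means were 49.5% at summits and 35.8% in flanks, with the summit higher at 90.4%. Candidates of the 25 factor genes without a peak had 40.4% ± 8.71 at the summit and 36.1% ± 6.45 in flanks, with the summit higher at 15. All 10816 genes with only a candidate gave 40.5% and 35.1%, and 69.1% of them had the higher value at the summit. Whether base composition plays a part in the signal was not tested.

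**Figure D5:**
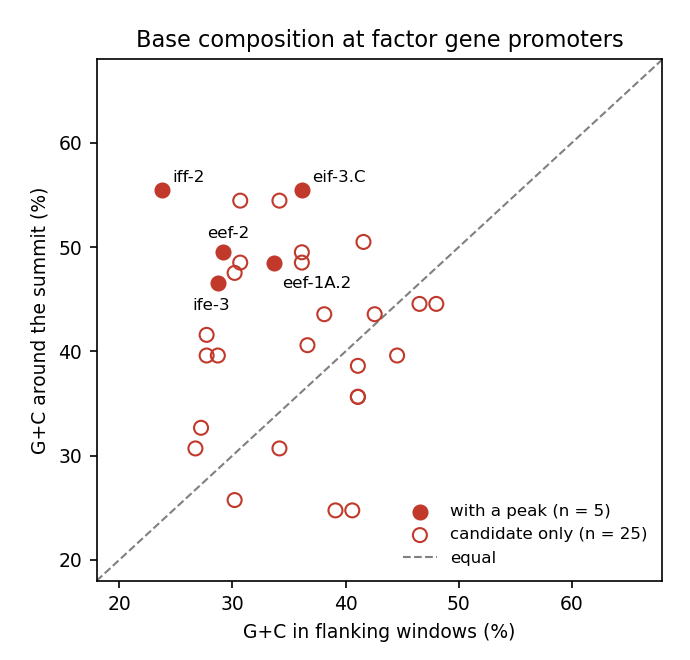
G+C content (%) up to 50 bp to either side of the summit against the mean of the flanking windows 250 bp to either side, for the 30 factor genes with a promoter region; filled points are the 5 with a peak. All filled points lie above the dashed line of equal content, with summit values from 46.5 to 55.4%.

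Read by other definitions, the count of factor genes with a peak was 5 or 6, except with replicate 2 alone or a shorter promoter. The optimal list, which also combines both replicates, held the same 5 genes, beside 2.51% of all protein-coding genes. Replicate 1 alone had 5, with eif-3.B in and eef-1A.2 out, beside 1.45% of all genes. Replicate 2 alone had 2, ife-3 and iff-2, beside 0.976%. With 250 bp upstream in place of 500 bp, ife-3 and eef-1A.2 dropped out and 3 were left, beside 1.4%. With 1000 bp upstream eif-2Bgamma came in as the sixth, beside 3.48%. All 5 were kept among the stronger 50% of the peaks (1.64% of all genes), with any overlap of the peak in place of the summit (2.96%), with only the outermost 5′ end of each gene (2.08%) and without peaks within 500 bp of a tRNA or snoRNA gene (2.03%). At rank 764 of 1546, eif-3.C was only just among the stronger 50%.

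Other genes of translation were taken from a list of 39 symbols, of which 31 matched a protein-coding gene of the annotation. Of these, 3 had a promoter peak (9.68%, 3.35 to 24.9), beside 2.34% of all protein-coding genes. drr-2, related to the eIF4A cofactor eIF4H, had the strongest (chrIII:13643611-13643906, signal 218 combined, 124 in replicate 1 and 93.7 in replicate 2), at rank 100. The promoter window of set-16 holds the same peak, so the peak cannot be given to drr-2 alone. pab-2 (chrX:13527324-13527619) and pab-1 (chrI:10435086-10435381) encode poly(A)-binding proteins, which join the tail of the messenger RNA to eIF4G. pab-2 had 96.2 combined and 48.8 in each replicate, and pab-1 had 93.4 combined, 53.1 in replicate 1 and 40.3 in replicate 2. Unlike the eEF1A, eIF5A and eIF4E families, both genes of this pair had a peak. The other 28 had none in the conservative list. Of these, ifet-1 had a region of 102.2 in replicate 2, above the 93.7 of drr-2 there. It lay near the upstream edge of the promoter window. The strongest ifet-1 candidates elsewhere lay closer to the 5′ end, with 21.0 combined and 19.3 in replicate 1, so the replicates differ at ifet-1.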

How the data were processed

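ChIP-seq peak lists of 2 biological replicates, on ce11 per the labels, were used. Nothing says how the worm cultures of the 2 were separated. The signal, score and −log10 IDR are the authors' deposited values; the aligner, peak caller and signal scale were not given in these sources. The deposited lists were 4 thresholded and 4 ranked ones. The combined ranked list was the one that holds 100% of the conservative peaks past an IDR of 0.01 (the other holds 80.3%). Genes and 5′ ends came from Ensembl release 115 and sequence from the RefSeq genome of the same assembly. Per-replicate values are those of the strongest region in the promoter in each replicate's ranked list; for bound members its summit is within 42 bp of the combined one.

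Members, gene list and motifs were chosen with earlier results of these data known. Every member is accounted for; named with values were those with a promoter peak in any thresholded list, all paralogs of 4 families and the 5 strongest candidates without a peak, and those with no candidate were named. Proteins were translated from the annotation and aligned globally with BLOSUM62. Shares have 95% Wilson intervals. No p-value was computed, since there is 1 group. The promoter search was tested on simulated data. Alternatives are given in the closing section. Computation used Biopython 1.88 and pandas 2.3.3 in Python 3.11.15, with figures by matplotlib 3.10.9.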

Additional observations from a re-analysis of the deposited data

How the results depend on the processing

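With only one replicate's list, the number of factor genes with a promoter peak was between 2 and 5, that of initiation factors between 1 and 3 and that of elongation factors between 0 and 1. With 250 bp upstream the numbers were 3, 1 and 1. The other 6 alternatives of list, threshold, window, overlap, 5′ ends and small RNA neighbours kept all 3 counts within 1.5 times those in the report. Counting the iff- genes in gave 3 of 34 for initiation and 3 of 8 for elongation.

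For paralogs, the difference in log2 signal between eef-1A.2 and eef-1A.1 was 1.20 in replicate 1, against 1.71 in the combined list, and had no value in replicate 2. That between iff-2 and iff-1 was 1.73 to 2.17 in single replicates, against 2.71, with the strongest candidate in the promoter taken in each. For ife-3 and ife-4 it was 3.42 in replicate 2, against 3.38, with no value in replicate 1. For eef-1B.1 and eef-1B.2 it was −0.57 in replicate 1, against 0.39, and had no value in replicate 2 or the optimal list; the cause was not tested. The other differences moved by less than the spread between replicates. Where a value is missing, the list held no candidate in that promoter. With 2 replicates and no reads, the error of a single signal cannot be given. No paired analysis was possible because there is a single group.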

Other observations

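Outside the promoter windows, 5 more conservative peaks lay in or within 1500 bp of factor genes. eif-3.C had a second peak, with a signal of 84.5, in its coding sequence (chrI:9976708-9977003). Upstream of eif-3.G a peak with a signal of 159 lay 1060 bp from the 5′ end, inside the neighbouring gene lips-10 (chrII:8441559-8441854). Upstream of eif-2Bgamma a peak with a signal of 111 lay 735 bp away, inside C15F1.5 (chrII:6968235-6968530). Past the 3′ ends, a peak with a signal of 114 lay 116 bp behind eif-2alpha (chrI:2076893-2077188), between genes and in no promoter. Another, with a signal of 78.4, lay 214 bp behind eef-1B.2 (chrIV:15039617-15039912), in the promoter window and the body of hrpu-1. None of these 5 was within 500 bp of a tRNA or snoRNA gene.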
